A study of Mus with 96 samples.

Results

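Iron handling in the liver was followed through 10 genes in mice with and without the clock gene Bmal1 in their hepatocytes. The genes were chosen by symbol from the deposited count table and comprised the hepcidin genes Hamp and Hamp2, the regulators of hepcidin Bmp6, Hfe and Tfr2, the uptake genes Trf and Tfrc, the ferritin chains Fth1 and Ftl1, and the iron exporter Slc40a1. All 10 were found among the 55487 genes of the table and passed the filter on low counts, and none was at 0 in any library. The mice were C57BL/6J males and females 8 to 10 weeks old that carried floxed Bmal1 alleles (Bmal1flx/flx) in every group. Hep-Bmal1KO mice also carried Cre under the albumin promoter (AlbCre/+), which deletes the floxed allele in hepatocytes and leaves the other liver cells with a working clock, and their Cre-negative littermates (Alb+/+) served as Hep-Bmal1WT. They received normal chow (NC) or cdHFD, a choline-deficient high-fat diet, for 2 weeks under 12 hours of light and 12 of darkness. The cdHFD also held cholesterol and less protein and carbohydrate than NC, and the sources used here do not state the iron content of either diet. From each genotype and diet, 4 livers were taken at each of zeitgeber times (ZT) 2, 6, 10, 14, 18, and 22. ZT counts the hours after lights on. This gave 96 libraries, 24 per combination of genotype and diet, with both sexes at equal numbers in every group of 4 except Hep-Bmal1WT on cdHFD at ZT14, which held 3 males and 1 female. Replicates were separate mice. The labels give mouse numbers but no replicate numbers, so mice were numbered 1 to 4 within a group in sample record order. Replicates 1 and 2 were males in 22 of 24 groups and replicates 3 and 4 females in 21 and 22, so that leaving out 1 replicate of each group also shifts the balance of the sexes.

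Hepcidin, the peptide hormone that hepatocytes secrete, limits the entry of iron into plasma by triggering the degradation of ferroportin, the only known cellular iron exporter, which Slc40a1 encodes and which macrophages, enterocytes, and hepatocytes carry. Hepcidin transcription rises when BMP6, a ligand made mainly by sinusoidal endothelial cells, acts on hepatocyte receptors and SMAD proteins together with hemojuvelin, HFE, and transferrin receptor 2, and it also rises when IL-6 acts through STAT3. Iron travels in plasma bound to transferrin, enters cells through transferrin receptor 1 (Tfrc), and is stored in shells of the heavy and light ferritin chains, whose translation and, for Tfrc, whose mRNA stability respond to iron through the iron regulatory proteins.

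Gene counts summed to between 1861740 and 9718615 per library (median 6412078.5), and 22.6% to 39.9% of the reads of a library were not assigned to a gene. This share differed by sex and diet. In Hep-Bmal1WT on NC at ZT18 it was 39.9% and 36.6% in males and 27.5% and 26.1% in females. At ZT6 it was 25.3% and 27.2% against 25.7% and 26.3%. In Hep-Bmal1KO on NC at ZT18 it was 29.9% and 29.3% against 25.4% and 25.6%, and on cdHFD no library exceeded 29.4%. Its part in the differences by sex or diet was not tested. With all ZTs pooled, Arntl, the older symbol of Bmal1, ranged from 0.21 to 26.1 CPM (counts scaled to a common library size) in Hep-Bmal1WT on NC. In Hep-Bmal1KO on NC it ranged from 0.253 to 13 CPM. Ranges pooled over the day can overlap for a rhythmic gene whatever the genotype, and its levels at single ZTs are not given here. The method also reads the 3′ end of a transcript, which need not lie in the floxed part. These ranges therefore did not check the labels. On 10 clock genes and on 20 other genes, 7 libraries (4 labelled Hep-Bmal1WT and 3 labelled Hep-Bmal1KO) lay nearer the other genotype of their diet and ZT, and the main results that change without them are given both ways. Because these 7 libraries were picked by their likeness to the other genotype, leaving them out can by itself sharpen differences between the genotypes. Over all genes, calls between the genotypes went from 1960 to 2656 on NC and from 1494 to 2024 on cdHFD. Those for genotype by diet went from 473 to 919. Values without these libraries are therefore no independent check of a genotype effect. Libraries of a genotype and diet were prepared in plate columns of their own, so that plate position and group cannot be told apart. Counts of a bulk tissue do not show whether a gene fell because fewer cells made it or because each cell held less of its RNA, and a rise in the RNA of other cells lowers the CPM of hepatocyte genes.

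The annotation of GRCm38.p6 (RefSeq) places Hamp at chr7:30942368-30944029 and Hamp2 at chr7:30922372-30924181, next to each other. How alike their sequences are was not measured here, and neither was the number of reads counted on the wrong one of the pair. Among Hep-Bmal1KO males on NC, Hamp2 fell to 8.743 CPM, where the lowest Hamp value was 905.1 CPM. Ftl1 lies on the same chromosome at chr7:45457944-45459886. The other members are at chr9:103208876-103230286 (Trf), chr16:32608896-32632794 (Tfrc), chr5:137569822-137588081 (Tfr2), chr19:9980600-9985111 (Fth1), chr1:45908070-45926532 (Slc40a1), chr13:23702034-23710854 (Hfe), and chr13:38345716-38500314 (Bmp6). Rows named as pseudogenes held 0.000925% of the counts of Fth1 and its pseudogenes and 0.534% of those of Ftl1 and its pseudogenes. Tfrc and Bmp6 were counted thinly, with medians of 69 and 39.5 counts per library, and Bmp6 fell to 2 counts in 1 library.

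More of the 10 genes were called for diet than for genotype. On cdHFD, 6 of the 10 differed from NC in Hep-Bmal1WT livers (Trf, Fth1, and Slc40a1 higher; Hamp2, Tfr2, and Ftl1 lower) against a background of 55.7% of the 15548 genes tested. In Hep-Bmal1KO livers 5 of 10 differed (Trf and Slc40a1 higher; Hamp2, Tfr2, and Hfe lower) against 61.9% of all genes, so that neither share stood above the background. Between the genotypes, 2 of 10 differed on NC (Hfe higher and Slc40a1 lower in Hep-Bmal1KO) against 12.6% of all genes, and 1 of 10 on cdHFD (Hamp higher) against 9.61%. Calls are at an adjusted p under 0.05 in the quasi-likelihood test of edgeR with ZT as a factor, adjusted over all genes tested, and fold changes of diet are cdHFD over NC. The 4 comparisons of diet and genotype share their groups of mice and are not independent of each other. The median log2 fold change of the 10 was -0.08 in Hep-Bmal1WT and -0.07 in Hep-Bmal1KO for diet, beside 0.01 and 0.02 over all genes.

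Hamp itself, the hepcidin gene that carries the hormonal function, kept a similar level across the 4 combinations. It was between 609 and 3858 CPM (median 2097) in Hep-Bmal1WT on NC, between 832.1 and 3693 CPM (median 2579) in Hep-Bmal1KO on NC, between 1226 and 2740 CPM (median 1801) in Hep-Bmal1WT on cdHFD, and between 1410 and 3742 CPM (median 2118) in Hep-Bmal1KO on cdHFD. All 4 ranges overlapped, and the SD was 960.5 and 957.5 CPM on NC but 389.2 and 534.1 CPM on cdHFD. On cdHFD, Hamp was higher in Hep-Bmal1KO (mean 2204 CPM ± 534.1 SD, n = 24) than in Hep-Bmal1WT (1824 CPM ± 389.2 SD, n = 24), by 0.27 ± 0.08 (SE) on the log2 scale (adjusted p = 0.0148), and by 0.30 without the libraries nearer the other genotype (adjusted p = 0.00442). Leaving out replicate 2, 3, or 4 of each group ended this call, at adjusted p of 0.089, 0.0561, and 0.0736. On NC the genotypes differed by 0.05 (95% interval -0.24 to 0.34, adjusted p = 0.897), and the difference between the diets in the genotype effect was 0.22 ± 0.17 (SE), which did not pass (adjusted p = 0.549). For diet, the log2 fold change of Hamp was -0.27 ± 0.13 (SE) in Hep-Bmal1WT (adjusted p = 0.0746) and -0.05 ± 0.12 (SE) in Hep-Bmal1KO (adjusted p = 0.715). The former passed without the libraries nearer the other genotype (-0.32, adjusted p = 0.0303), without replicate 1 (-0.37, adjusted p = 0.0283), and among females alone (-0.51, adjusted p = 0.00162), where males alone gave 0.12 (adjusted p = 0.606), and it was -0.11 without replicate 4 (adjusted p = 0.572).

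Hamp2, the second mouse hepcidin gene, whose product is not known to regulate iron, separated the sexes on NC and lost most of that separation on cdHFD. In Hep-Bmal1WT on NC its 12 females lay between 200.3 and 1671 CPM (median 682.1) and its 12 males between 9.25 and 211 CPM (median 21.03). In Hep-Bmal1KO on NC the females lay between 146.3 and 1044 CPM (median 369.8) and the males between 8.743 and 89.6 CPM (median 36.85), so that every female was above every male there and 11 of 12 were in Hep-Bmal1WT. Female medians were thus 32.5 times the male median in Hep-Bmal1WT and 10 times in Hep-Bmal1KO. On cdHFD the females had fallen to a median of 61.19 CPM (47.68 to 125.2, n = 11) in Hep-Bmal1WT and 95.1 CPM (38.24 to 199, n = 12) in Hep-Bmal1KO, and the males stood at 19.67 CPM (9.726 to 65.5, n = 13) and 39.52 CPM (13.26 to 349.5, n = 12). The groups of the sexes now overlapped, with 4 of 11 females above every male in Hep-Bmal1WT and 0 of 12 in Hep-Bmal1KO, and the ratio of the medians was 3.11 and 2.41.

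In the model of both genotypes, females exceeded males in Hamp2 by 4.01 ± 0.27 (SE) on the log2 scale on NC (adjusted p = 4.11e-17) and by 1.17 ± 0.20 on cdHFD (adjusted p = 3.23e-05). The sex difference was smaller on cdHFD (difference -2.83 ± 0.34 log2 units, adjusted p = 4.4e-10), making Hamp2 the 1 of 10 members called for sex by diet, against 7.8% of all genes. Within Hep-Bmal1WT alone the same term was -2.76 and 2 of 10 members passed, against 3.83% of all genes, and within Hep-Bmal1KO alone it was -2.76 and 1 of 10 passed, against 3.45%. The diet lowered Hamp2 by 2.94 ± 0.49 log2 units in Hep-Bmal1WT (value -2.94, adjusted p = 1.29e-06) and by 1.59 ± 0.44 in Hep-Bmal1KO (value -1.59, adjusted p = 0.00174) with the sexes pooled. The latter call ended without replicate 4 of each group (adjusted p = 0.0979). Among females alone it changed by -3.21 (adjusted p = 3.03e-13) and -2.13 (adjusted p = 3.81e-07), and among males alone by -0.36 (adjusted p = 0.499) and 0.60 (adjusted p = 0.244). On cdHFD Hamp2 was 0.73 ± 0.25 (SE) log2 units higher in Hep-Bmal1KO, which missed the threshold (adjusted p = 0.0571), and it passed with sex as a covariate (0.81, adjusted p = 0.00356) and without the libraries nearer the other genotype (0.89, adjusted p = 0.00867).

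Hamp did not show the same separation. Its female and male medians were 2746 and 1663 CPM in Hep-Bmal1WT on NC, 2472 and 2757 CPM in Hep-Bmal1KO on NC, 1803 and 1800 CPM in Hep-Bmal1WT on cdHFD, and 2028 and 2294 CPM in Hep-Bmal1KO on cdHFD. The female minus male log2 difference of Hamp was 0.28 ± 0.14 (SE) on NC (adjusted p = 0.179) and -0.11 ± 0.07 on cdHFD (adjusted p = 0.481). When the counts of both genes were summed, as for a locus whose reads cannot be separated, females exceeded males on NC by 0.59 (adjusted p = 0.000816) and the diet in Hep-Bmal1WT lowered the sum by 0.49 (value -0.49, adjusted p = 0.00307).

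**Figure D1:**
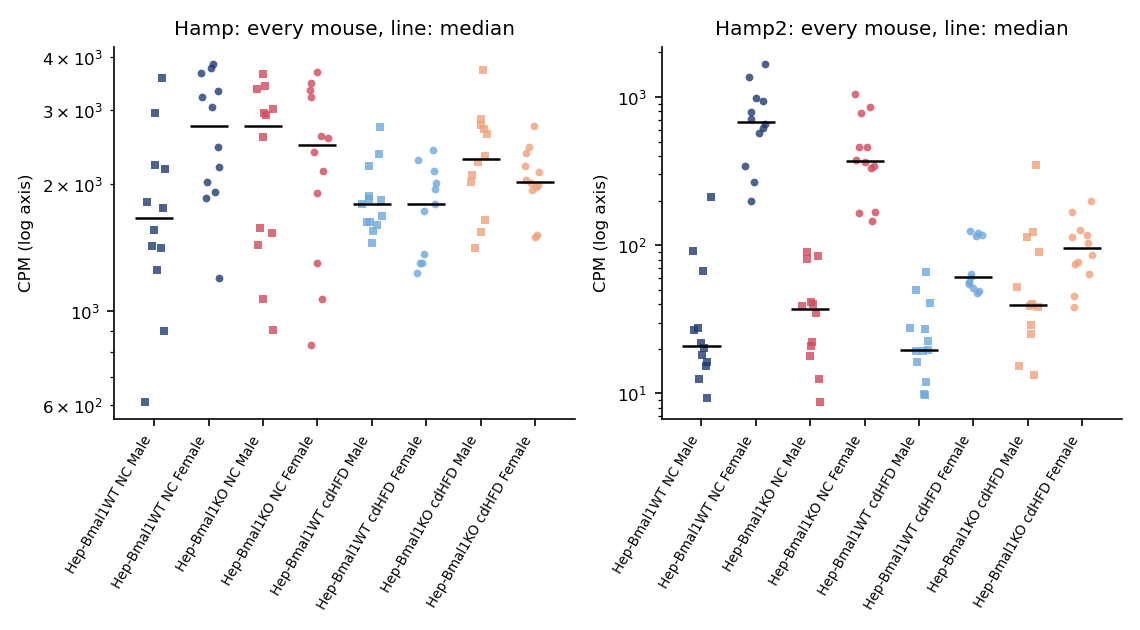
Each symbol is the level of Hamp (left) or Hamp2 (right) in 1 mouse in CPM on a log axis, by genotype, diet, and sex (squares, males; circles, females), and lines are medians of 11 to 13 mice. Hamp2 stood at medians of 682.1 and 369.8 CPM in NC females against 21.03 and 36.85 CPM in NC males, and at 61.19 and 95.1 CPM in cdHFD females.

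Sex counts for the members were 3 of 10 on NC, against 18.3% of all genes, and 2 of 10 on cdHFD, against 5.8%. Beside Hamp2, females had more Trf on NC (14900 CPM ± 3341 SD against 12190 ± 3002 SD, n = 24 each; log2 difference 0.29, adjusted p = 0.000372) and on cdHFD (17640 CPM ± 3859 SD, n = 23, against 14490 ± 2762 SD, n = 25; 0.31, adjusted p = 2.69e-05). Ftl1 was lower in females on NC by 0.17 log2 units (value -0.17, adjusted p = 0.0479), a call that each of the 4 omissions of a replicate ended.

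Among the genes that regulate hepcidin, Tfr2 separated the diets completely. Tfr2, the hepatocyte receptor that senses iron-loaded transferrin, ranged on NC from 169.2 to 253.3 CPM (median 202.5) in Hep-Bmal1WT and from 177.5 to 278.3 CPM (median 197.6) in Hep-Bmal1KO. On cdHFD it ranged from 79.87 to 128.8 CPM (median 96.14) and from 71.92 to 120.8 CPM (median 96.57). All 48 mice on cdHFD therefore lay below all 48 on NC, in both sexes and at each ZT. How many of all genes separated the diets in this way was not counted. The log2 fold change was -1.02 ± 0.05 (SE) in Hep-Bmal1WT (adjusted p = 3.7e-24) and -1.10 ± 0.05 in Hep-Bmal1KO (adjusted p = 7.38e-24), and it did not differ detectably between the genotypes (difference -0.07 ± 0.07, adjusted p = 0.672). Males alone gave -1.03 and -1.24 and females alone -0.95 and -0.92 in Hep-Bmal1WT and Hep-Bmal1KO. Between the genotypes Tfr2 differed by 0.01 on NC (95% interval -0.08 to 0.10) and by -0.06 on cdHFD (95% interval -0.16 to 0.04). All 4 markers of hepatocytes (Alb, Apoa1, Ttr, and Serpina1c) were also lower on cdHFD in both genotypes, with median log2 fold changes of -1.17 and -1.06. Over all genes, 55.7% and 61.9% were called for diet in either direction in Hep-Bmal1WT and Hep-Bmal1KO. The summed level of the markers went from 100000 to 209000 CPM (median 153000) to 52500 to 88600 CPM (median 72400) in Hep-Bmal1WT. Not every gene of a plasma protein fell. Trf rose by 0.28 and 0.21, and Hpx and Hp rose as given below. The part of the shift in hepatocyte markers in the fall of Tfr2 was not tested.

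**Figure D2:**
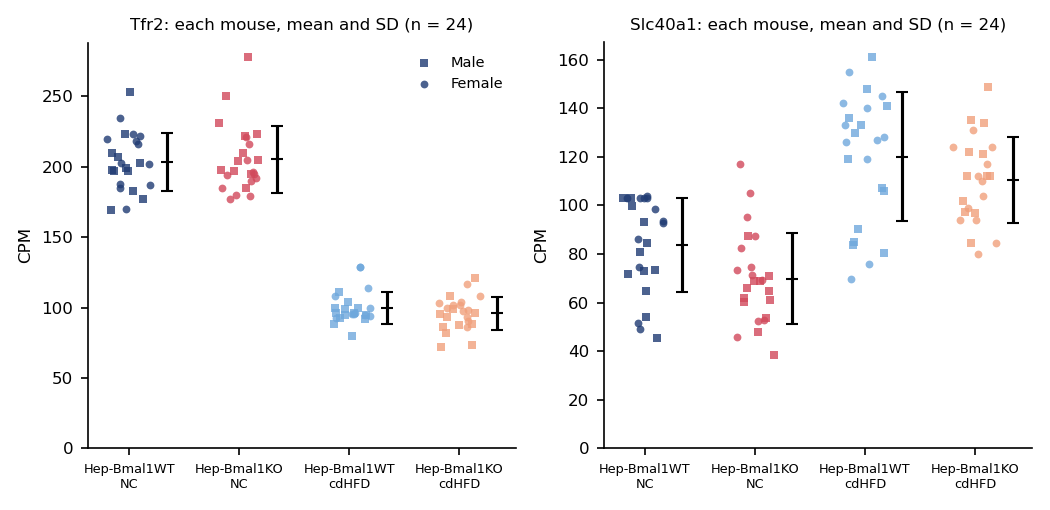
Levels of Tfr2 (left) and Slc40a1 (right) in CPM in each of 96 mice by genotype and diet (squares, males; circles, females), with the mean and SD of 24 mice beside each group. For Tfr2 the cdHFD mice reached at most 128.8 CPM and the NC mice stood at 169.2 CPM or more, whereas the diets overlapped for Slc40a1.

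Hfe, the MHC class I-like protein whose loss causes hemochromatosis, showed a small genotype effect that depended on the diet. In Hep-Bmal1WT its median was 43.4 CPM on NC (28.37 to 59.42) and 47.26 CPM on cdHFD (36.87 to 59.72), and in Hep-Bmal1KO it was 53.68 CPM on NC (30.12 to 68.98) and 45.07 CPM on cdHFD (37.2 to 58.91). The ranges overlapped throughout, with the Hep-Bmal1KO mice on NC highest. Hep-Bmal1KO exceeded Hep-Bmal1WT by 0.23 ± 0.06 (SE) log2 units on NC (adjusted p = 0.0138) and stood at -0.05 ± 0.05 on cdHFD (adjusted p = 0.577). The difference between these effects, -0.28 ± 0.08 (SE), passed for Hfe alone, 1 of 10 members against 3.04% of all genes (adjusted p = 0.0355), and was -0.35 without the libraries nearer the other genotype (adjusted p = 0.00182). Leaving out any 1 replicate of each group gave adjusted p between 0.0773 and 0.278 for this difference, and the call on NC ended without replicate 1, 3, or 4 (adjusted p = 0.13, 0.0591, and 0.0539). With diet, Hfe was lower in Hep-Bmal1KO by 0.18 (value -0.18, adjusted p = 0.00881; 0.0637 without replicate 4), while in Hep-Bmal1WT it stood at 0.10 (adjusted p = 0.128), or 0.17 without the libraries nearer the other genotype (adjusted p = 0.0123).

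Bmp6, the endothelial ligand that drives hepcidin, was not called in any comparison of level. Its means were 6.881 CPM ± 2.808 (SD) in Hep-Bmal1WT on NC, 6.329 ± 1.87 in Hep-Bmal1KO on NC, 6.002 ± 1.614 in Hep-Bmal1WT on cdHFD, and 6.939 ± 2.52 in Hep-Bmal1KO on cdHFD (n = 24 each). For diet the 95% intervals were -0.42 to 0.06 log2 units in Hep-Bmal1WT and -0.11 to 0.38 in Hep-Bmal1KO. Over the same comparison, 4 and 5 of 7 sinusoidal endothelial markers were higher on cdHFD and 1 of 7 lower in each genotype. Of all genes, 55.7% and 61.9% were called in either direction in Hep-Bmal1WT and Hep-Bmal1KO.

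Trf, which encodes the plasma iron carrier transferrin, was higher on cdHFD. In Hep-Bmal1WT it rose from 14020 CPM ± 3741 (SD) to 16870 ± 4257, by 0.28 ± 0.07 (SE) log2 units (adjusted p = 0.000737), and in Hep-Bmal1KO from 13070 ± 3092 to 15120 ± 2768, by 0.21 ± 0.07 (adjusted p = 0.00796), with overlapping ranges. Tfrc, the receptor that takes transferrin-bound iron into cells, showed no diet effect with the sexes pooled (-0.01, 95% interval -0.31 to 0.28 in Hep-Bmal1WT; -0.12, 95% interval -0.46 to 0.21 in Hep-Bmal1KO). In Hep-Bmal1WT the sexes went opposite ways, however. Males lay between 7.966 and 20.92 CPM on NC (median 16.45) and between 7.829 and 17.6 CPM on cdHFD (median 11.06), a log2 fold change of -0.34 (adjusted p = 0.0431). Females lay between 3.295 and 13.6 CPM on NC (median 8.266) and between 7.46 and 26.32 CPM on cdHFD (median 9.33), a log2 fold change of 0.50 (adjusted p = 0.0466). Tested within Hep-Bmal1WT, a comparison added after these values were seen, the difference was 0.88 ± 0.23 (SE) (adjusted p = 0.019), against 0.21 ± 0.24 in Hep-Bmal1KO (adjusted p = 0.762) and 0.55 ± 0.21 over both genotypes (adjusted p = 0.103).

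The ferritin chains differed little. Fth1, the heavy chain that oxidises iron for storage, rose on cdHFD in Hep-Bmal1WT from 4648 CPM ± 994.2 (SD) to 5376 ± 885, by 0.22 ± 0.05 (SE) log2 units (adjusted p = 0.000263). In Hep-Bmal1KO it was 5043 ± 856.4 on NC and 5087 ± 816.8 on cdHFD, a log2 fold change of 0.01 (adjusted p = 0.822). The difference between those diet effects, -0.21 ± 0.07, did not pass (adjusted p = 0.101) but did without the libraries nearer the other genotype (-0.25, adjusted p = 0.0224), where Fth1 was also higher in Hep-Bmal1KO on NC (0.16, adjusted p = 0.0394). Ftl1, the light chain, fell on cdHFD in Hep-Bmal1WT by 0.15 (value -0.15, adjusted p = 0.0407), a call lost under size factors of DESeq2 (-0.12, adjusted p = 0.0948), without replicate 1 or 2 (adjusted p = 0.423 and 0.408), and without the libraries nearer the other genotype (adjusted p = 0.0842). In Hep-Bmal1KO the value of Ftl1 was -0.09 (adjusted p = 0.154).

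Slc40a1 rose on cdHFD in both genotypes. In Hep-Bmal1WT it lay between 45.55 and 103.9 CPM on NC (median 89.54) and between 69.85 and 161.3 CPM on cdHFD (median 127.8). In Hep-Bmal1KO it lay between 38.58 and 117.2 CPM on NC (median 68.85) and between 80.08 and 149.4 CPM on cdHFD (median 111.9). The cdHFD mice were higher as groups, with an overlap between the diets in each genotype. The increase was 0.51 ± 0.08 (SE) log2 units in Hep-Bmal1WT (adjusted p = 4.87e-07) and 0.67 ± 0.08 in Hep-Bmal1KO (adjusted p = 9.61e-11), and the genotypes did not differ detectably in it (0.17 ± 0.11, adjusted p = 0.486). On NC, Hep-Bmal1KO was lower than Hep-Bmal1WT by 0.28 ± 0.09 log2 units (value -0.28, adjusted p = 0.0418), a call that each omission of a replicate ended at adjusted p between 0.0505 and 0.221, and that held without the libraries nearer the other genotype (-0.31, adjusted p = 0.023).

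Other liver cells also express Slc40a1, and their markers moved with the diet. All 10 markers of Kupffer cells and macrophages were higher on cdHFD in each genotype, with median log2 fold changes of 2.57 and 2.6, and their summed level went from 124 to 299 CPM (median 237) to 558 to 1370 CPM (median 967) in Hep-Bmal1WT and from 102 to 328 CPM (median 218) to 688 to 1390 CPM (median 1000) in Hep-Bmal1KO. Among them Clec4f and Timd4, markers of resident Kupffer cells, rose by 1.03 and 0.65 in Hep-Bmal1WT, and Gpnmb, a marker of lipid-associated macrophages, rose by 5.17. All 7 erythroid markers fell, with medians of -1.28 and -1.69, and their summed level went from a median of 1370 to 641 CPM in Hep-Bmal1WT and from 1550 to 410 CPM in Hep-Bmal1KO. Of all genes, 55.7% and 61.9% were called for diet in either direction in Hep-Bmal1WT and Hep-Bmal1KO. No marker of either list was at 0 throughout a group. Their part in the change of Slc40a1, Tfrc, or the other members was not tested.

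Over the day, Hamp was called rhythmic on NC in both genotypes, though the call did not hold in every subset of mice. A gene was called rhythmic at an unadjusted p under 0.01 in the cosinor test, JTK_CYCLE, or edgeR, and amplitudes are distances from mean to peak on the variance-stabilized log2 scale. On NC, 2 of 10 members were rhythmic in Hep-Bmal1WT (Hamp and Trf) against 21.8% of all genes, and 4 of 10 in Hep-Bmal1KO (Hamp, Tfrc, Fth1, and Hfe) against 10.6%. On cdHFD, 4 of 10 were rhythmic in Hep-Bmal1WT (Trf, Tfrc, Fth1, and Hfe) against 18.3%, and 2 of 10 in Hep-Bmal1KO (Hamp2 and Tfrc) against 9.8%. With adjusted p under 0.05 in at least 1 test the counts were 2, 1, 3, and 0, and the share of all genes at that threshold is not given here. Of the 12 calls, 2 were kept without each replicate in turn and without the libraries nearer the other genotype, those of Trf on NC and of Tfrc on cdHFD in Hep-Bmal1WT. Tfr2, Ftl1, Slc40a1, and Bmp6 were not called in any of the 4 combinations. The fits of rhythm and amplitude held no term for sex, so that a difference between the sexes added to their error. A missing call for Hamp2 on NC or for Tfrc in Hep-Bmal1WT on NC therefore does not show that no rhythm was present.

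For Hamp on NC, the means of 4 Hep-Bmal1WT mice were 1951, 1459, 1830, 2556, 3246, and 2512 CPM at ZT 2, 6, 10, 14, 18, and 22, and those of Hep-Bmal1KO were 2536, 1181, 2043, 3264, 3039, and 2193 CPM. The lowest mean was at ZT6 and the highest early or midway in the dark phase in each. Fitted amplitudes were 0.56 ± 0.17 (SE) with a peak at ZT 18.04 ± 1.15 h in Hep-Bmal1WT and 0.58 ± 0.16 with a peak at ZT 17.36 ± 1.07 h in Hep-Bmal1KO, which is 2.18 and 2.25 times from trough to peak. In Hep-Bmal1WT only edgeR made the call, and in Hep-Bmal1KO it did not pass with adjustment. Without the libraries nearer the other genotype the amplitudes were 0.43 and 0.48 and Hamp was not called in either genotype, nor was it without replicate 3 (0.50 and 0.59) or replicate 4 (0.57 and 0.51). On cdHFD the means ran from 1401 CPM at ZT22 to 2102 CPM at ZT2 in Hep-Bmal1WT and from 1610 CPM at ZT6 to 2591 CPM at ZT2 in Hep-Bmal1KO, with amplitudes of 0.11 ± 0.09 and 0.18 ± 0.09 and Hamp was not called rhythmic, except in Hep-Bmal1KO without replicate 4 (0.28).

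The amplitude of Hamp was lower on cdHFD by 0.45 ± 0.19 (SE) in Hep-Bmal1WT (value -0.45, unadjusted p = 0.0244, adjusted p = 0.519) and by 0.40 ± 0.19 in Hep-Bmal1KO (value -0.40, unadjusted p = 0.0405, adjusted p = 1). Taking the CircaCompare model and an unadjusted p below 0.05, 1 of 10 members differed in amplitude with diet in Hep-Bmal1WT (Hamp) against 7.92% of all genes, and 2 of 10 in Hep-Bmal1KO (Hamp and Hfe) against 4.25%. The change in Hamp lost this mark without the libraries nearer the other genotype (-0.37 and -0.30), in Hep-Bmal1WT also without replicate 2 or 3 (-0.42 and -0.38), and in Hep-Bmal1KO without replicate 3 or 4 (-0.38 and -0.23). Between the genotypes 1 of 10 differed on NC (Tfrc) against 4.12%, and 0 of 10 on cdHFD against 2.93%; no member differed with adjustment over all genes. The amplitude of Hamp differed between the genotypes by 0.02 ± 0.24 on NC.

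The fitted peak time of Tfrc differed between the diets in Hep-Bmal1KO. In Hep-Bmal1KO on NC the 4 mice at ZT18 had 23.2, 15.1, 24.9, and 23.8 CPM and those at ZT14 had 6.5, 6.58, 4.57, and 5.64 CPM, so that each value at ZT18 was more than 2 times each value at ZT14. In Hep-Bmal1WT on NC the mice had 8, 19.2, 4.01, and 10.6 CPM at ZT18 and 17, 20.9, 8.18, and 6.15 CPM at ZT14, with both males above both females at ZT14 and the sexes mixed at ZT18, and no rhythm was called (amplitude 0.07 ± 0.17 SE). The amplitude in Hep-Bmal1KO on NC was 0.56 ± 0.14 with a peak at ZT 21.4 ± 0.94 h, larger than in Hep-Bmal1WT by 0.49 ± 0.22 (unadjusted p = 0.0294, adjusted p = 1). That difference was 0.39 without replicate 2 and 0.27 without replicate 4, neither past an unadjusted p of 0.05, and the rhythm itself was not called without replicate 4. On cdHFD both genotypes peaked near the change to darkness, with amplitudes of 0.43 ± 0.07 at ZT 12.59 ± 0.65 h in Hep-Bmal1WT and 0.42 ± 0.11 at ZT 12.79 ± 1.04 h in Hep-Bmal1KO. The call in Hep-Bmal1KO on cdHFD did not pass with adjustment and was lost without replicate 1, 2, or 3 (0.37, 0.43, and 0.42) and without the libraries nearer the other genotype (0.38). In Hep-Bmal1KO on NC the highest mean, 21.75 CPM at ZT18, followed the lowest, 5.824 CPM at ZT14, and preceded the fitted peak. On cdHFD the means at ZT 10, 14, and 18 were 12.5, 12.94, and 12.38 CPM in that genotype. The highest sampled times therefore lay closer together than the fitted peaks. By the CircaCompare fit, the peak of Tfrc within Hep-Bmal1KO was 8.61 ± 1.44 h earlier on cdHFD (value -8.61, adjusted p = 1.68e-05). The adjustment was among the 315 genes rhythmic on both diets, of which 34.9% shifted. This comparison requires a rhythm on both diets, and it rested in part on 1 time point: without ZT18 the estimate was 11.6 ± 1.88 h, close to opposite phases, where earlier and later cannot be distinguished.

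Other peak times did not differ detectably among genes rhythmic in both groups. For Trf in Hep-Bmal1WT the diets differed by -1.21 ± 1.22 h (adjusted p = 0.461, against 37.4% of such genes shifted), for Hamp on NC the genotypes by -0.67 ± 1.57 h (adjusted p = 0.858, against 1.41%), and for Tfrc on cdHFD by 0.21 ± 1.22 h (adjusted p = 0.96, against 2.39%). Trf peaked at ZT 21.03 ± 0.80 h on NC (amplitude 0.41 ± 0.09) and ZT 19.82 ± 0.91 h on cdHFD (0.34 ± 0.08) in Hep-Bmal1WT, and was not called rhythmic in Hep-Bmal1KO (0.22 ± 0.09 and 0.16 ± 0.07), but was on NC without the libraries nearer the other genotype (0.27). The difference in amplitude between the genotypes did not pass and was -0.19 ± 0.12 on NC and -0.18 ± 0.11 on cdHFD. Fth1, Trf, and Hfe had their lowest mean at ZT10 in all 4 combinations. In Hep-Bmal1WT and Hep-Bmal1KO on NC and then on cdHFD, Fth1 stood there at 2975, 3550, 3999, and 3895 CPM. In the same order, Trf stood at 8894, 9598, 11530, and 11430 CPM and Hfe at 33.49, 40.28, 41.82, and 41.22 CPM. Slc40a1 and Bmp6 were also lowest at ZT10, except in Hep-Bmal1KO on NC. Fitted peaks of Fth1 were between ZT 18.93 and ZT 21.48, with amplitudes of 0.15 to 0.28.

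**Figure D3:**
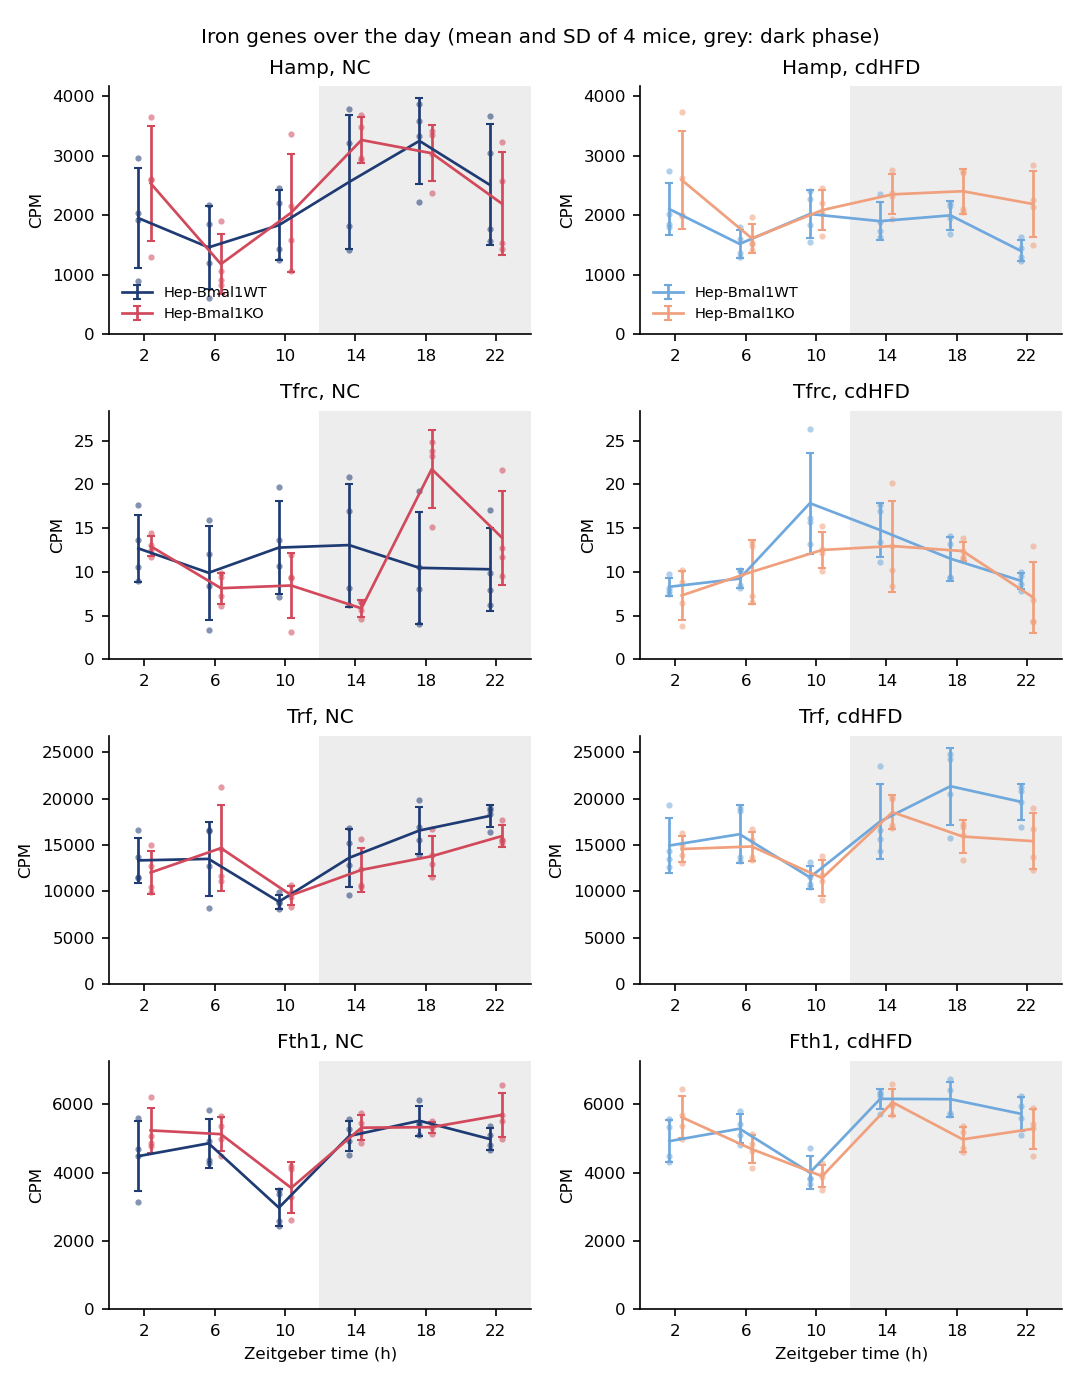
Levels of Hamp, Tfrc, Trf, and Fth1 in CPM (y axis) over zeitgeber time in hours (x axis) on NC (left) and cdHFD (right), with the mean and SD of 4 mice as lines and bars, single mice as dots, and the dark phase in grey. Hamp rose to 3246 and 3264 CPM in the dark phase on NC and stayed between 1401 and 2591 CPM on cdHFD, Tfrc reached 21.75 CPM at ZT18 in Hep-Bmal1KO on NC, and Fth1 and Trf were lowest at ZT10.

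A further 4 lists hold other genes of the same pathways. Of 15 genes of the BMP and SMAD input to hepcidin, 6 were higher and 4 lower on cdHFD in Hep-Bmal1WT, and 6 were higher and 5 lower in Hep-Bmal1KO, beside 55.7% and 61.9% of all genes called. Tmprss6, the protease matriptase-2 that cleaves hemojuvelin and restrains hepcidin, fell from 409.9 to 239.7 CPM in Hep-Bmal1WT (log2 fold change -0.77, adjusted p = 1.33e-18) and from 506.9 to 241.8 CPM in Hep-Bmal1KO (-1.08, adjusted p = 8.4e-22). Id1 and Atoh8, targets of BMP signaling, rose: Id1 by 0.92 and 1.67 and Atoh8 by 0.54 and 0.85. Smad4, the common partner of the receptor SMADs, rose by 0.19 in Hep-Bmal1WT and 0.33 in Hep-Bmal1KO. Neo1, a coreceptor of hemojuvelin, fell in both (-0.44 and -0.31), as did Acvr2a, a type II receptor (-0.29 and -0.41). These changes of BMP targets stood beside Hamp values of -0.27 and -0.05 that did not pass.

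Hjv, the gene of hemojuvelin, went opposite ways with diet in the 2 genotypes. It was 104 CPM on NC and 127.1 CPM on cdHFD in Hep-Bmal1WT (0.31 ± 0.07 SE, adjusted p = 0.00022) and 107.6 and 91.02 CPM in Hep-Bmal1KO (-0.25 ± 0.07, adjusted p = 0.00212). On cdHFD it was therefore lower in Hep-Bmal1KO by 0.48 ± 0.06 log2 units (value -0.48, adjusted p = 2.79e-07), and the genotype effect differed between the diets (-0.55 ± 0.09, adjusted p = 1.82e-05). Tmprss6 was higher in Hep-Bmal1KO on NC (0.31 ± 0.05, adjusted p = 1.82e-05) and its genotype effect was smaller on cdHFD (-0.30 ± 0.07, adjusted p = 0.0115). Atoh8 was higher in Hep-Bmal1KO on cdHFD (0.40, adjusted p = 0.00784). In all, 1 of the 15 genes of this list was called between the genotypes on NC, 2 on cdHFD, and 2 for genotype by diet, where 12.6%, 9.61%, and 3.04% of all genes were called.

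Of 6 genes of the IL-6 and STAT3 input, 2 were higher and 2 lower on cdHFD in Hep-Bmal1WT, and 3 higher and 1 lower in Hep-Bmal1KO, again beside 55.7% and 61.9% of all genes. Jak1 (0.45 and 0.53) and Il6st, the shared signaling receptor chain (0.19 and 0.42), rose in both genotypes, Stat3 fell in both (-0.22 and -0.24), and Jak2 rose in Hep-Bmal1KO (0.26). Il6ra, the IL-6 receptor, was lower in Hep-Bmal1KO on NC (25.36 against 38.9 CPM, -0.65, adjusted p = 0.00248) and fell with diet in Hep-Bmal1WT (-0.78), and its genotype effect differed between the diets (0.79, adjusted p = 0.0121).

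Of 17 genes of iron and heme transport and handling, 7 were higher and 6 lower on cdHFD in each genotype, against the same background of 55.7% and 61.9%. Hmox1, which breaks down heme and frees its iron, rose from 24.73 to 109.7 CPM in Hep-Bmal1WT (2.16, adjusted p = 1.58e-17) and from 23.27 to 130.8 CPM in Hep-Bmal1KO (2.49, adjusted p = 2.1e-22). Hpx and Hp, the plasma scavengers of heme and hemoglobin, rose by 1.03 and 1.24 in Hep-Bmal1WT and by 0.88 and 0.91 in Hep-Bmal1KO, and Slc48a1, a heme transporter, rose by 0.57 and 0.58. Aco1 and Ireb2, which encode the iron regulatory proteins, fell in Hep-Bmal1WT (-0.78 and -0.69) and in Hep-Bmal1KO (-0.83 and -0.57), as did Lrp1, an endocytic receptor of heme-hemopexin (-0.19 and -0.28), and Slc39a8, an importer of zinc and iron (-0.43 and -0.58).

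Between the genotypes 4 of these 17 were called on NC and 4 on cdHFD, beside 12.6% and 9.61% of all genes. Cp, the ferroxidase ceruloplasmin that loads iron onto transferrin, was higher in Hep-Bmal1KO on both diets (861.4 against 598.6 CPM, 0.52, adjusted p = 2.66e-06; and 1173 against 977.8 CPM, 0.27, adjusted p = 0.000524), and Slc39a8 was higher on NC (0.32). Aco1 was lower on both diets (-0.21, adjusted p = 0.00132; and -0.26, adjusted p = 0.000288), Ireb2 on NC (-0.21), and Hp and Slc11a2, the ferrous iron transporter DMT1, on cdHFD (-0.22 and -0.20).

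Of 7 genes of mitochondrial iron, heme, and iron-sulfur cluster synthesis, 0 rose and 4 fell on cdHFD in each genotype, a share near the 55.7% and 61.9% of all genes called, with median log2 fold changes of -0.46 and -0.31 beside 0.01 and 0.02 over all genes. Fech, which inserts iron into heme, fell from 251.1 to 168.1 CPM in Hep-Bmal1WT (-0.57, adjusted p = 2.94e-14) and from 224.4 to 156.3 CPM in Hep-Bmal1KO (-0.53, adjusted p = 1.85e-13). Nfs1, the cysteine desulfurase that starts cluster assembly, fell by 0.46 in each (values -0.46 and -0.46), and Slc25a37, the mitochondrial iron importer mitoferrin 1, by 0.58 and 0.63 (values -0.58 and -0.63), in a direction shared with the erythroid markers given above. Slc25a37 was also lower in Hep-Bmal1KO on NC (-0.38) and cdHFD (-0.42), as was Fech on NC (-0.16). Between the genotypes 0 of 7 erythroid markers were called on NC and 1 of 7, lower, on cdHFD, beside 12.6% and 9.61% of all genes. The part of erythroid cells in these changes was not tested.

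**Figure D4:**
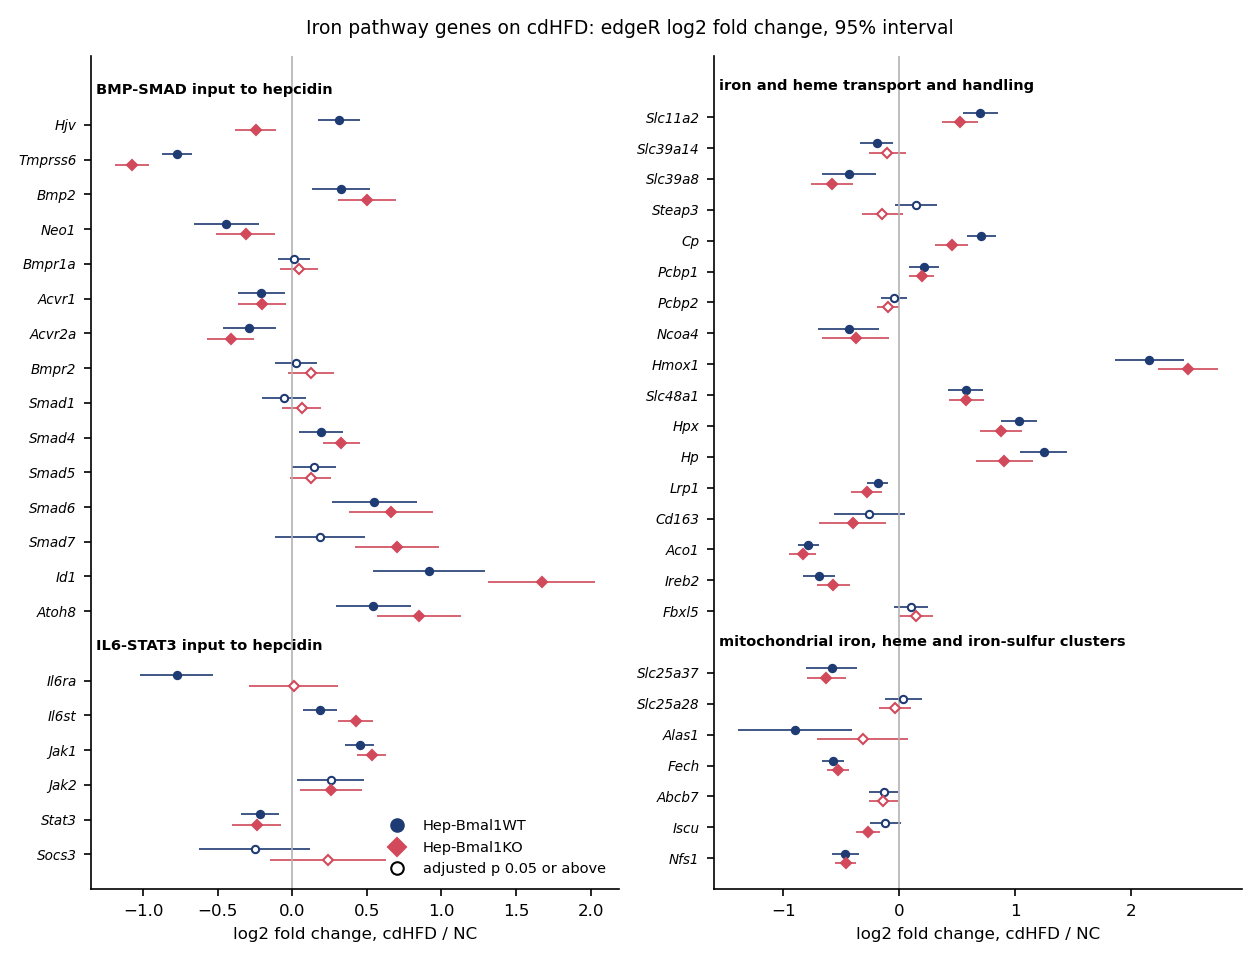
The log2 fold change of cdHFD over NC (x axis) is shown for the genes of the 4 pathway lists in Hep-Bmal1WT (circles) and Hep-Bmal1KO (diamonds), with 95% intervals; open symbols have an adjusted p of 0.05 or above. Hmox1 lay highest at 2.16 and 2.49, Tmprss6 lay at -0.77 and -1.08, and Hjv was the gene whose called values had opposite signs (0.31 and -0.25).

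More genes of these lists were called between the sexes on NC than on cdHFD, as over all genes (18.3% and 5.8%). On NC, Bmp2, Id1, and Smad6 were higher in females (0.47, 0.99, and 0.53), together with Il6ra (0.55), Slc39a8, Fbxl5, and Hmox1 (0.44, 0.34, and 0.40), while Hp, Hpx, Slc11a2, and Slc48a1 (-0.48, -0.40, -0.36, and -0.30) and Iscu, Slc25a37, and Nfs1 (-0.34, -0.44, and -0.21) were lower. On cdHFD only Slc48a1 (-0.32) and Cd163, the hemoglobin scavenger receptor of macrophages (-0.49), of the genes of these lists were called by edgeR, both lower in females. On NC, 6 of 10 macrophage markers, 6 of 7 sinusoidal endothelial markers, and 3 of 5 stellate cell markers were higher in females and 5 of 7 erythroid markers lower, and their part in these differences was not tested.

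Over the 24 means of genotype, diet, and ZT, the genes whose log2 CPM followed Hamp most closely of 8999 compared were Tmed9 (Pearson r = 0.74), Manf (0.72), Cdk2ap2 (0.69), Hspb8 (0.68), and 2900076A07Rik (0.68). Those closest to Tfrc were Dtx3l (0.69), Ap1b1 (0.65), Upf1 (0.63), Tmem150a (0.63), and Smarca4 (0.62). Between members, Tfr2 and Slc40a1 were the pair of most opposite profile (r = -0.74). These correlations describe group means that share diets, times, and libraries and carry no test.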

How the data were processed

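Liver RNA of 96 mice was sequenced as BRB-seq, a bulk method that barcodes each sample and reads the 3′ ends of transcripts. Per the labels and the methods, the authors aligned reads to mm10 with STAR and counted them per gene (HTSeq and featureCounts are both named); whether duplicate molecules were collapsed was not stated in the sources used here. The deposited table holds raw counts. Of all reads, 19.4% were listed as not aligned and 8.06% as outside any gene, and these stayed out of library sizes and tests. Depth ran from 1861740 to 9718615 counts on genes per library.

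The 15548 genes whose counts summed to 100 or more across the libraries were normalized by TMM and tested with the quasi-likelihood test of edgeR 4.0.16 in R 4.3.3, with ZT as a factor, and p-values were adjusted by Benjamini-Hochberg over all of them. Contrasts were genotype within diet, diet within genotype, sex within diet, and their interactions. Rhythms with a period of 24 h were tested by cosinor and JTK_CYCLE on variance-stabilized counts (DESeq2 1.42.0) and by edgeR on counts normalized by TMM. Amplitude and peak time were compared with the CircaCompare model on the variance-stabilized values. The fits of rhythm, amplitude, and peak time held no term for sex. Adjusted p-values of the interaction, level, and sex comparisons come from edgeR. Procedures were tested on simulated data.

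The members and lists were chosen with earlier results of these data known, and 1 gene of the mitochondrial list is not reported here. All 10 members are named, with up to 3 genes per list, comparison, and direction of smallest p among those called, and the 5 genes most correlated with Hamp and with Tfrc among genes with a mean of at least 5 CPM. Hp in the comparison of the sexes and the values of a named gene in the other genotype were added after they were seen. Alternatives were the DESeq2 test, its size factors, other filters, and sex as a covariate or each sex alone. Further ones were omission of each replicate or of the libraries nearer the other genotype. Counts were also summed for Hamp and Hamp2 and for each ferritin gene with its pseudogenes.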

Additional observations from a re-analysis of the deposited data

Results flagged for a closer look

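Of 240 groups of 4 mice (10 genes at each genotype, diet, and ZT), 12 held a mouse far from the other 3, where chance gives about 1 group in 20. In Hep-Bmal1KO on NC at ZT2, 1 female had 783 CPM of Hamp2 and the others 20.8 to 146, 1 mouse had 50.3 CPM of Hfe and the others 66.1 to 69, and 1 had 2.63 CPM of Bmp6 and the others 5.51 to 6.02. In the same group on NC, Hfe was 42.9 CPM in 1 mouse at ZT18 (others 54.5 to 56.2) and Trf was 17700 CPM in 1 mouse at ZT22 (others 15200 to 15500). In Hep-Bmal1KO on cdHFD at ZT10, Hfe was 37.2 CPM in 1 mouse (others 42.1 to 43.1). In Hep-Bmal1WT on NC at ZT14, Bmp6 was 12.8 CPM in 1 mouse (others 5.56 to 6.44). In Hep-Bmal1WT on cdHFD, single mice stood apart for Ftl1 at ZT2 (11300 CPM, others 6740 to 7340), Fth1 at ZT10 (4710, others 3660 to 3830) and ZT14 (5720, others 6260 to 6370), and Hfe at ZT14 (59.7, others 50.1 to 51.2) and ZT18 (44.6, others 51 to 51.9).

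By the interaction term of edgeR, the genotype effect differed between the diets in Hfe (-0.28 log2 units), Hjv (-0.55), Tmprss6 (-0.30), and Il6ra (0.79). The sex difference was smaller or more negative on cdHFD in Hamp2 (-2.83), Bmp2 (-0.40), Id1 (-0.69), Hmox1 (-0.74), and Fbxl5 (-0.29), and shifted toward females in Hp (0.58), Hpx (0.40), Iscu (0.37), and Nfs1 (0.24). Within Hep-Bmal1WT alone, Hamp2 gave -2.76 and Tfrc 0.88, and within Hep-Bmal1KO alone Hamp2 gave -2.76.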

How the results depend on the processing

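Of 922 log2 fold changes of a member under an alternative, 851 kept their direction and side of the threshold, 42 were no longer called, 26 became called, and 3 reversed; a value uncalled in both was counted as kept whatever its sign. The 3 were Tfrc for diet in Hep-Bmal1WT (0.50 in females alone), Hamp2 for diet in Hep-Bmal1KO (0.60 in males alone), and Hamp2 for sex on cdHFD (-0.079 with Hamp and Hamp2 summed). Counts of called members stayed within 1.5 times in 99 of 157 cases. For genotype on NC (2 called), 1 was called with no filter, 1 in males alone, 0 in females alone, and 0 to 2 without 1 replicate. Over all genes, 1960 were called in the main run and 1692, 1759, 578, and 940 to 1630 under these alternatives. For genotype on cdHFD (1), the counts were 2 with no filter, 2 without the libraries nearer the other genotype, 3 with sex as a covariate, and 0 to 1 without 1 replicate. In the same order, all genes called went from 1494 to 1539, 2024, 1679, and 522 to 1376. For diet in Hep-Bmal1KO (5), the member counts were 3 in males alone and 3 to 5 without 1 replicate, and all genes called went from 9631 to 8167 and to 8659 to 9055. For genotype by diet (1), the member counts were 0 with no filter, 0 in males alone, 0 in females alone, 2 without the libraries nearer the other genotype, 2 with sex as a covariate, and 0 without any 1 replicate. All genes called moved too, from 473 to 407, 467, 153, 919, 762, and 103 to 373 in this order. For sex on NC (3), 6 were called with no filter, where 2745 of 26567 genes were called, beside 2838 of 15548 in the main run. For sex by diet (1), the counts were 2 with DESeq2, 3 with no filter, and 2 in Hep-Bmal1WT alone, the last added after seeing the data. There, all genes called went from 1212 to 1416 of 14038 tested, 1492 of 26567, and 595 of 15548.

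Rhythmic members on NC in Hep-Bmal1WT (2) were 1 by cosinor alone, 1 by JTK_CYCLE alone, and 1 to 3 without 1 replicate, and on cdHFD (4) they were 1 to 4 without 1 replicate. In Hep-Bmal1KO on NC (4) they were 1 by JTK_CYCLE alone, 1 by adjusted p, 2 without the libraries nearer the other genotype, and 1 to 2 without 1 replicate, and on cdHFD (2) they were 1 by cosinor alone, 0 by JTK_CYCLE alone, 0 by adjusted p, 1 without those libraries, and 0 to 3 without 1 replicate. Shares of all genes under the alternatives of rhythm and amplitude are not given here. Members with a different amplitude were 0 by adjusted p in each comparison. Without 1 replicate they were 0 to 1 for genotype on NC (1), for diet in Hep-Bmal1WT (1), and for diet in Hep-Bmal1KO (2), and without the libraries nearer the other genotype 0 for diet in Hep-Bmal1WT and 1 in Hep-Bmal1KO. The fitted peak of Tfrc in Hep-Bmal1KO moved by -9.28 to -8.21 h without 1 replicate and by 11.62 h without ZT18, alternatives added after seeing the data. The causes of these shifts were not tested. No paired analysis was possible because each library came from a separate mouse, and the replicate numbers used here only name mice within a group. Depth limits Bmp6 and Tfrc most, at medians of 39.5 and 69 counts.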
